A study of Mus musculus with 8 samples.

Results

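The estrogen receptor gene Esr1, the progesterone receptor gene Pgr and 6 genes whose products act with these receptors were followed in RNA from uterine stromal cells of mice. The 8 genes were taken by symbol from the deposited count files, and all 8 were among the 13347 genes tested, of 23238 symbols listed. The cells are labelled as stromal cells of ovariectomized mice of strain C57BL/6-ICR, animals without ovaries and so without the main source of estrogen and progesterone. The first group had the genotype Atg7d/d and was injected with the ovarian estrogen estradiol (E2). The second group had the genotype Atg7d/d and received oil. The third group had the genotype Atg7f/f and was injected with E2, and the fourth had the genotype Atg7f/f and received oil. Each group held 2 libraries. In Atg7f/f mice, called controls here, the autophagy gene Atg7 carries recombination sites and is intact. The deleted mice are Atg7f/f;Amhr2cre, in which Cre recombinase driven by Amhr2, a gene of the reproductive tract mesenchyme, removes Atg7 from the uterine mesenchyme. No group carried Cre with an intact Atg7, so Cre itself and the loss of Atg7 cannot be told apart. The labels do not give the dose, the time after injection, the ages, how the stromal cells were separated, or whether the libraries came from separate animals.

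Esr1 encodes estrogen receptor alpha, a transcription factor that binds estradiol and then DNA, at the estrogen response element or through other factors. Pgr encodes the progesterone receptor and is a classic target of that receptor, with opposite responses of epithelium and stroma known in the mouse uterus. Both receptors take up coactivators when they bind an activating hormone, and corepressors can limit their activity. Ncoa1, Ncoa2 and Ncoa3 encode the p160 coactivators, which bind the hormone-loaded receptor and bring in histone acetyltransferases and methyltransferases. Nrip1 encodes RIP140, which binds hormone-loaded receptors and mostly represses. Ncor1 encodes a corepressor that carries histone deacetylase to receptors without activating hormone. Greb1 is an estrogen-induced gene in human breast cancer cells, where its protein is a chromatin-bound cofactor of the estrogen receptor.

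The start regions of 3 of these genes are shown because their transcripts bear on whether the hormone moved its own receptor, the classic target or a cofactor. RefSeq start regions (GRCm38.p6, the assembly of mm10) run from 250 bases before to 50 bases after a start. They were matched by symbol for 6 of the 8 genes, in 10 windows. Capitals mark GGTCA, 1 arm of the estrogen response element, searched on both strands. The Pgr window lies at chr9:8899583-8899882 on the plus strand, the Esr1 window at chr10:4611739-4612038 on the plus strand, and the Greb1 window at chr12:16757190-16757489 on the minus strand. In the GENCODE annotation Pgr spans chr9:8899833-8968611, Esr1 spans chr10:4611593-5005614 and Greb1 spans chr12:16670615-16800886. The Pgr window holds the first start of its gene, while the Esr1 and Greb1 windows hold starts of transcripts that begin further inside the gene.
Pgr: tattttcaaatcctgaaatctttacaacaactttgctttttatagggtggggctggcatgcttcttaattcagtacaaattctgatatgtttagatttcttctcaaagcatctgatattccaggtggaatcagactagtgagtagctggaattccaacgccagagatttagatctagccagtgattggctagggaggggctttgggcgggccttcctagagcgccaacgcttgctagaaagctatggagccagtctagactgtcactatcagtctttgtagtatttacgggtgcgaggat
Esr1: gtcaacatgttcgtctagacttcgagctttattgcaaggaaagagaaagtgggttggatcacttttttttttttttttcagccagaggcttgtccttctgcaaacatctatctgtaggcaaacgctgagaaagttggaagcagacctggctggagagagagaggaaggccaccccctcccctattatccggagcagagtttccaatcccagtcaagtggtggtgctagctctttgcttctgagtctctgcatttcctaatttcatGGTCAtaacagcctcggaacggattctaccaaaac
Greb1: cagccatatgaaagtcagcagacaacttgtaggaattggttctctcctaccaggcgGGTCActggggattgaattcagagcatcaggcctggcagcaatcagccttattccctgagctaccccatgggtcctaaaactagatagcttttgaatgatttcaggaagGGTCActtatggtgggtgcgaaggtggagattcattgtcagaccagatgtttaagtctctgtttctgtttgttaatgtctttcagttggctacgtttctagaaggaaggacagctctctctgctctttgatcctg
The Pgr window held no GGTCA, the Esr1 window held 1 and the Greb1 window held 2. Of the windows given for Esr1 and Greb1, those with more of these letters are shown, to display the match. The second Esr1 window held none, and the Greb1 window at the first start of its gene held 1. The letters occurred in 4 of the 10 windows of these genes and in 40.5% of 32851 RefSeq windows of this length, counted over both strands. The whole element, GGTCA then NNN then TGACC, was in none of the 10 windows and in 0.07% of all windows. The Pgr window held the GC box GGGCGG 1 time, a motif present in 35.7% of all windows. These matches describe letters in the windows, and binding was not measured.

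The RNA was read with a 3′-end method (QuantSeq), in which a transcript gives reads near its end whatever its length. Library totals ran from 5458390 to 6951080 counts, and the 8 genes had between 61 and 2742 reads each per library. Levels are in CPM, the reads of a gene relative to the size of its library, scaled between libraries by the trimmed mean of M-values. Effects are log2 fold changes with their standard error, E2 over oil or deleted over control, from edgeR's quasi-likelihood test with Benjamini-Hochberg adjustment over all genes tested. A gene was called at an adjusted p below 0.05, and each group mean is given ± SD with n = 2. The libraries of the control oil group stood farthest apart, with 14.9% of genes over 2-fold different between them, against 5.16% to 7.38% in the other 3 groups. Atg7 had 20 to 33 reads in every library and passed no test. Its 3′ reads can come from outside the deleted part, so they do not check the deletion.

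Pgr was the one gene of the 8 called higher after E2 in both genotypes. Its levels were 346.9 and 415.5 CPM in deleted E2 libraries, against 220.2 and 276.8 CPM in deleted oil libraries. In control stroma they were 383.0 and 338.2 CPM with E2, against 193.6 and 200.05 CPM with oil. Every E2 library lay above every oil library, across both genotypes, where 45.9% of all genes did not overlap, in either direction. Of all genes tested, 77.1% had a lower log2 fold change after E2 than Pgr in deleted stroma, and 83% in control stroma. The E2 effect on Pgr was 0.62 ± 0.19 in deleted stroma (adjusted p = 0.0405) and 0.87 ± 0.19 in control stroma (adjusted p = 0.00961), on the log2 scale. In the average over both genotypes it was 0.75 ± 0.13 (adjusted p = 0.00197), a 1.68-fold higher level with a 95% interval of 1.36 to 2.06. That averaged comparison was added after the data had been seen. Without 1 library the Pgr call in the average held each time, with adjusted p-values from 0.00245 to 0.0132.

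The Pgr call within deleted stroma was less firm. It ended without deleted E2 library 1 (adjusted p = 0.103), deleted E2 library 2 (0.222), deleted oil library 1 (0.22) or deleted oil library 2 (0.0604). It also ended without control E2 library 1 (0.064) or control E2 library 2 (0.0642), which only share in the estimate of the spread. The effect stayed between 0.46 and 0.79 on the log2 scale through these. Within control stroma the Pgr call ended without control E2 library 1 (adjusted p = 0.0708, log2 fold change 0.78).

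Esr1, the receptor that binds the injected hormone, passed no test. Its levels were 299.9 and 331.9 CPM in deleted E2 libraries, against 283.4 and 302.2 CPM in deleted oil libraries. In control stroma they were 326.0 and 284.6 CPM with E2, against 241.5 and 277.9 CPM with oil. The groups overlapped in deleted stroma, and in control stroma the lower E2 library lay just above the higher oil library. The E2 effect on Esr1 was 0.11 ± 0.17 in deleted stroma (adjusted p = 0.671) and 0.23 ± 0.17 in control stroma (adjusted p = 0.325), both log2 fold changes. The averaged effect of 0.17 ± 0.12 on the log2 scale had an adjusted p of 0.268. Its 95% interval ran from 0.933 to 1.36 times the oil level.

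**Figure D1:**
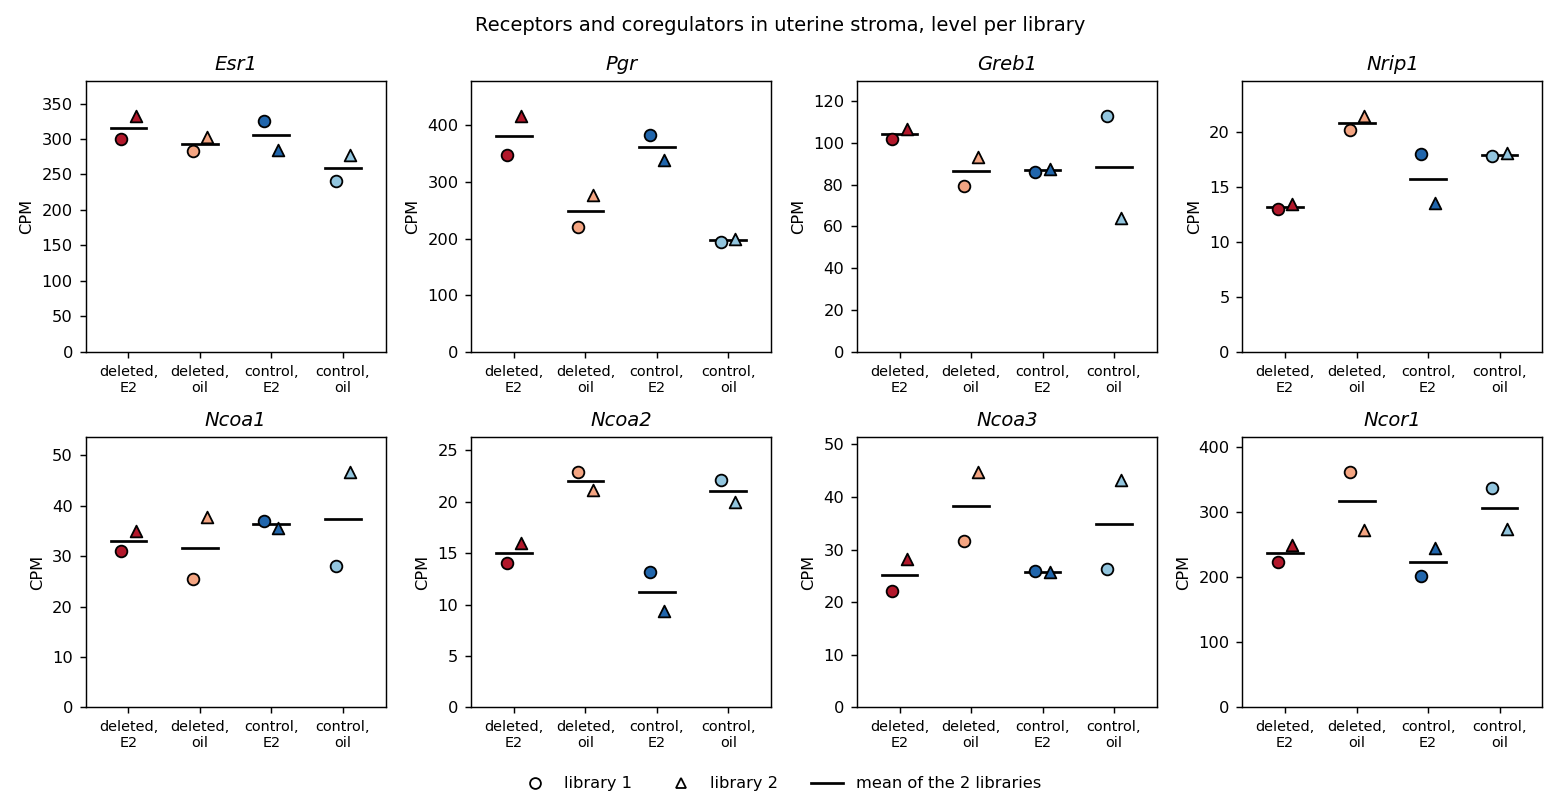
Level of each of the 8 genes in CPM (y axis) in the 4 groups (x axis, deleted E2, deleted oil, control E2, control oil). Circles are library 1, triangles are library 2 and bars are group means; Pgr libraries with E2 lie between 338.2 and 415.5 CPM, above all oil libraries, which reach at most 276.8 CPM.

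The ratio of Pgr reads to Esr1 reads within a library needs no scaling between libraries. It was 1.16 and 1.25 in deleted E2 libraries, against 0.777 and 0.916 in deleted oil libraries. It was 1.17 and 1.19 in control E2 libraries, against 0.801 and 0.720 in control oil libraries. Pgr reads outnumbered Esr1 reads in all 4 E2 libraries and in none of the 4 oil libraries. These are 3′ reads, and how well each gene's end is captured was not measured, so the ratio gives no number of molecules. The ratio was chosen after the values had been seen and carries no test.

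Greb1, the estrogen-induced cofactor of human breast cancer cells, was not called in either genotype. It had 101.8 and 106.4 CPM in deleted E2 libraries, against 79.2 and 93.4 CPM in deleted oil libraries. Control stroma had 85.9 and 87.6 CPM with E2, against 112.6 and 63.9 CPM with oil. The control oil libraries lay on either side of both control E2 libraries, with the widest gap between replicates of any of the 8 genes and 4 groups on the log2 scale. The E2 effect on Greb1 was 0.27 ± 0.25 in deleted stroma (adjusted p = 0.459) and -0.03 ± 0.25 in control stroma (adjusted p = 0.947), both log2 fold changes. Averaged over genotypes it was 0.12 ± 0.18 (adjusted p = 0.6), and it passed the threshold without control oil library 1, at 0.35 on the log2 scale (adjusted p = 0.0469). In the annotation, 304 bases of the last Greb1 exon overlap the antisense gene Gm48140, and the use of strand in the counting is not given in the sources used here.

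Nrip1, which encodes RIP140, was lower after E2 in the deleted libraries without passing the test. It had 12.95 and 13.43 CPM in deleted E2 libraries, against 20.2 and 21.4 CPM in deleted oil libraries. In control stroma the levels were 18.0 and 13.5 CPM with E2, against 17.8 and 18.1 CPM with oil. The groups were apart in deleted stroma and overlapped in control stroma, where control E2 library 1 lay among the oil libraries. The log2 fold change was -0.66 ± 0.23 in deleted stroma (adjusted p = 0.0664), -0.18 ± 0.23 in control stroma (adjusted p = 0.573) and -0.42 ± 0.16 in the average (adjusted p = 0.059). With size factors from DESeq2 in place of the trimmed mean, the average for Nrip1 passed the threshold (adjusted p = 0.0473).

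Among the p160 coactivators, Ncoa2 was called lower after E2 in control stroma. It had 13.1 and 9.37 CPM in control E2 libraries, against 22.1 and 20.0 CPM in control oil libraries. In deleted stroma it had 14.03 and 16.01 CPM with E2, against 22.9 and 21.1 CPM with oil. All 4 E2 libraries lay below all 4 oil libraries. The E2 effect on Ncoa2 was -0.55 ± 0.24 in deleted stroma (adjusted p = 0.124), where it was not called, and -0.90 ± 0.24 in control stroma (adjusted p = 0.0234), both log2 fold changes. The control call ended without control E2 library 2 (adjusted p = 0.137), without control oil library 1 (adjusted p = 0.0665), and in a fit of the 4 control libraries alone (adjusted p = 0.0784). In the average over genotypes Ncoa2 was called lower at -0.72 ± 0.17 (adjusted p = 0.00783), 0.605 times the oil level with a 95% interval of 0.463 to 0.791. That call held without each library in turn, with adjusted p-values from 0.00811 to 0.0396.

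Ncoa1 levels gave no separation by hormone. They were 30.9 and 34.9 CPM in deleted E2 libraries, against 25.4 and 37.8 CPM in deleted oil libraries, and 37.0 and 35.7 CPM in control E2 libraries, against 28.1 and 46.7 CPM in control oil libraries. In both genotypes the 2 E2 values lay between the 2 oil values. The log2 fold change of Ncoa1 was 0.06 ± 0.28 in deleted stroma (adjusted p = 0.897) and -0.04 ± 0.28 in control stroma (adjusted p = 0.927). Its last exon shares 68 bases with the antisense gene 4921501I09Rik.

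Ncoa3 had 22.1 and 28.1 CPM in deleted E2 libraries, against 31.6 and 44.7 CPM in deleted oil libraries. In control stroma it had 26.0 and 25.7 CPM with E2, against 26.3 and 43.2 CPM with oil. The E2 values were below the oil values in both genotypes, in control stroma by less than 1 CPM at the nearest pair. The log2 fold change was -0.60 ± 0.28 in deleted stroma (adjusted p = 0.147), -0.43 ± 0.28 in control stroma (adjusted p = 0.277) and -0.51 ± 0.20 in the average (adjusted p = 0.0602). The average for Ncoa3 passed the threshold without control oil library 1 (adjusted p = 0.00966) or deleted oil library 1 (adjusted p = 0.0458), and under 4 other settings, with adjusted p-values from 0.0339 to 0.048. The last exon of Ncoa3 shares 154 bases with Sulf2 on the opposite strand, so a count that ignores strand could mix the genes. Sulf2, which encodes a sulfatase acting on heparan sulfate, rose by 2.21 ± 0.21 in deleted stroma (adjusted p = 0.00075) and 2.75 ± 0.22 in control stroma (adjusted p = 0.000254) on the log2 scale. It had 385 and 352 reads in deleted E2 libraries, against 91 and 81 in deleted oil libraries, and 423 and 331 reads in control E2 libraries, against 51 and 47 in control oil libraries.

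Ncor1, the corepressor, had 223.1 and 249.4 CPM in deleted E2 libraries, against 361 and 272 CPM in deleted oil libraries. In control stroma it had 201 and 244 CPM with E2, against 337 and 273 CPM with oil. All 4 E2 libraries lay below all 4 oil libraries. The log2 fold change of Ncor1 was -0.42 ± 0.21 in deleted stroma (adjusted p = 0.162) and -0.45 ± 0.21 in control stroma (adjusted p = 0.126), neither called. In the average Ncor1 was called lower at -0.44 ± 0.15 (adjusted p = 0.0352), 0.738 times the oil level with a 95% interval of 0.587 to 0.928. The call ended without control E2 library 1 (adjusted p = 0.126), control oil library 1 (0.0671), deleted E2 library 1 (0.124), deleted E2 library 2 (0.0741) or deleted oil library 1 (0.128). The ratio of Ncor1 reads to reads of the 3 p160 genes together did not separate the hormone groups. It was 3.32 and 3.15 in deleted E2 libraries, against 4.52 and 2.63 in deleted oil libraries, and 2.65 and 3.45 in control E2 libraries, against 4.40 and 2.49 in control oil libraries.

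**Figure D2:**
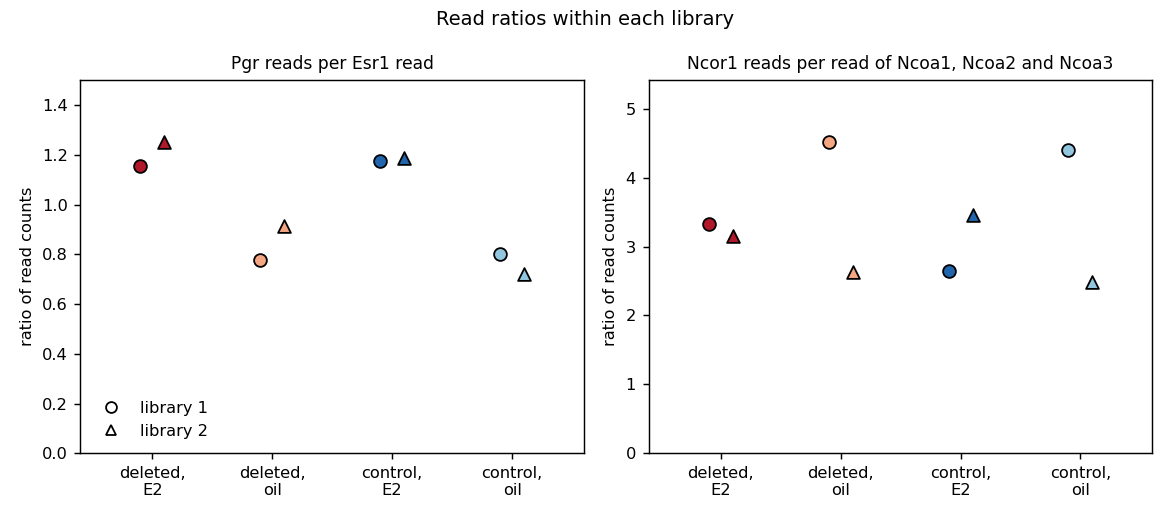
Read ratios within each library (y axis) for Pgr over Esr1 (left) and Ncor1 over the sum of the 3 p160 genes (right), in the 4 groups (x axis); circles are library 1 and triangles library 2. The Pgr over Esr1 ratio separates all E2 libraries (1.16 and above) from all oil libraries (0.916 and below), and in the right panel the E2 libraries lie between the libraries of the oil groups.

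The counts of calls were set beside those over all genes. In deleted stroma 1 of the 8 genes was called after E2, higher, where 24.3% of all genes tested were called, 13.1% higher and 11.2% lower. In control stroma 1 was called higher and 1 lower, where 29.8% of all genes were called, 15.8% higher and 14.0% lower. In the average, 1 was called higher and 2 lower, where 46.3% of all genes were called, 24.1% higher and 22.2% lower. With size factors from DESeq2 the average had 5 of the 8 genes called, beside 6196 of 13347 over all genes. The libraries of E2 and oil did not overlap for 6 of the 8 genes in deleted stroma and 5 in control stroma, against 68.2% and 65.5% of all genes. Over the 4 E2 and 4 oil libraries together, 3 of the 8 genes did not overlap, against 45.9% of all genes. The median size of the E2 effect, without its sign, was 0.486 for the 8 genes and 0.541 for all genes in deleted stroma. In control stroma it was 0.330 for the 8 genes and 0.579 for all genes, on the log2 scale. The sign of the effect was the same in both genotypes for 6 of the 8 genes, with Greb1 and Ncoa1 the exceptions, and for 85.9% of all genes.

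**Figure D3:**
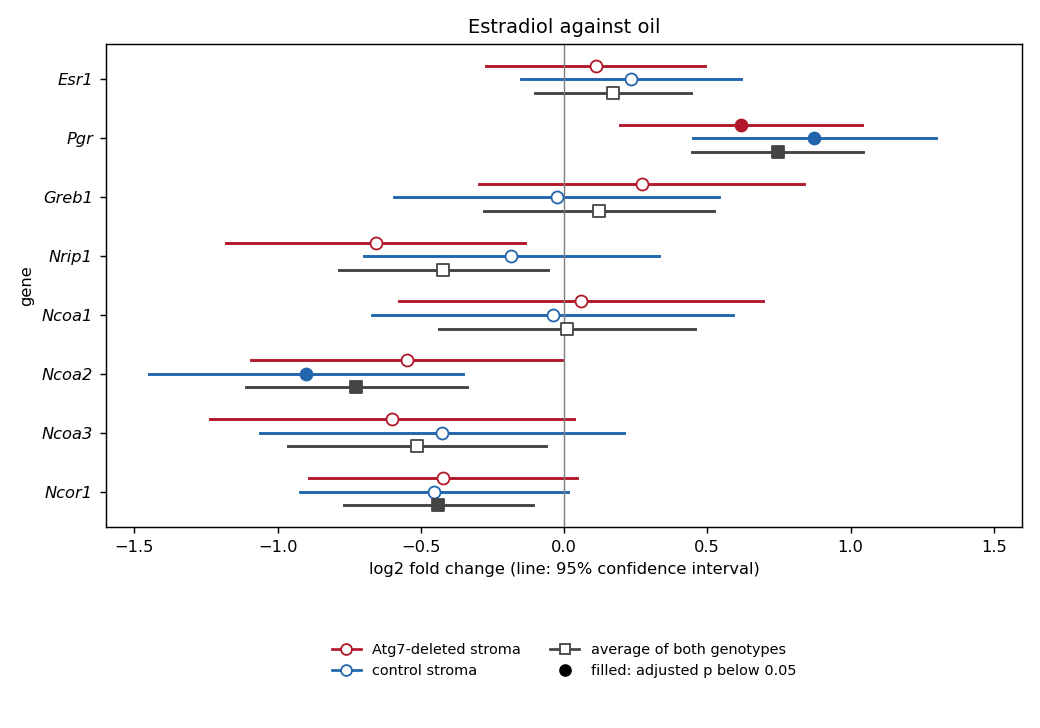
Log2 fold change of E2 over oil (x axis) for each of the 8 genes (y axis), with deleted stroma in red, control stroma in blue below it, their average as squares and 95% intervals as lines; filled symbols have an adjusted p below 0.05. Pgr is filled in both genotypes at 0.62 and 0.87, and Ncoa2 is filled in control stroma at -0.90.

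Loss of Atg7 gave no call among the receptors and cofactors. In oil and in E2 none of the 8 genes was called, and 0% of all genes tested were, with 339 genes in oil (2.54%) and 403 in E2 (3.02%) at an unadjusted p below 0.05. None of the 8 genes was below that unadjusted threshold, in either treatment, in the average over treatments (4.07% of all genes) or in the interaction, and DESeq2 called none of them. Over all genes DESeq2 called 0 in oil, 0 in E2, 0 in the interaction and 3 in the average. For the 8 genes in single treatments, log2 fold changes of deleted over control ran from -0.26 to 0.41, with standard errors of 0.17 to 0.28. The 95% intervals for single treatments ran from 0.546 to 1.96 times the control level, as the outermost limits over the 8 genes. The averages over treatments had intervals from 0.643 to 1.54 times the control level, and the genotypes overlapped over the 4 against 4 libraries for all 8 genes, where 0.974% of all genes did not overlap.

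The values nearest to a difference by genotype were those of Pgr in oil and Ncoa2 in E2. Pgr averaged 248 ± 40.1 CPM in deleted oil libraries and 197 ± 4.58 CPM in control oil libraries, with no overlap, for a log2 fold change of 0.34 (95% interval -0.08 to 0.76). With E2 it averaged 381 ± 48.6 CPM in deleted libraries and 361 ± 31.7 CPM in control libraries, which overlapped. Ncoa2 averaged 15.02 ± 1.40 CPM in deleted E2 libraries and 11.3 ± 2.66 CPM in control E2 libraries, with a log2 fold change of 0.41 (95% interval -0.14 to 0.97). The libraries of the genotypes did not overlap for 3 of the 8 genes in oil and 4 in E2, against 24.5% and 34.2% of all genes.

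The interaction asks whether E2 acted differently in deleted and control stroma. None of the 8 genes and 0% of all genes were called, with 210 genes (1.57%) at an unadjusted p below 0.05. The difference of the E2 effects, deleted minus control, was -0.26 ± 0.26 for Pgr (95% interval -0.85 to 0.34), -0.47 ± 0.32 for Nrip1 and 0.35 ± 0.34 for Ncoa2 on the log2 scale. Across the 8 genes the intervals ran from 0.434 to 2.17 times. That Ncoa2 was called in control stroma and not in deleted stroma is therefore no shown difference between genotypes.

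**Figure D4:**
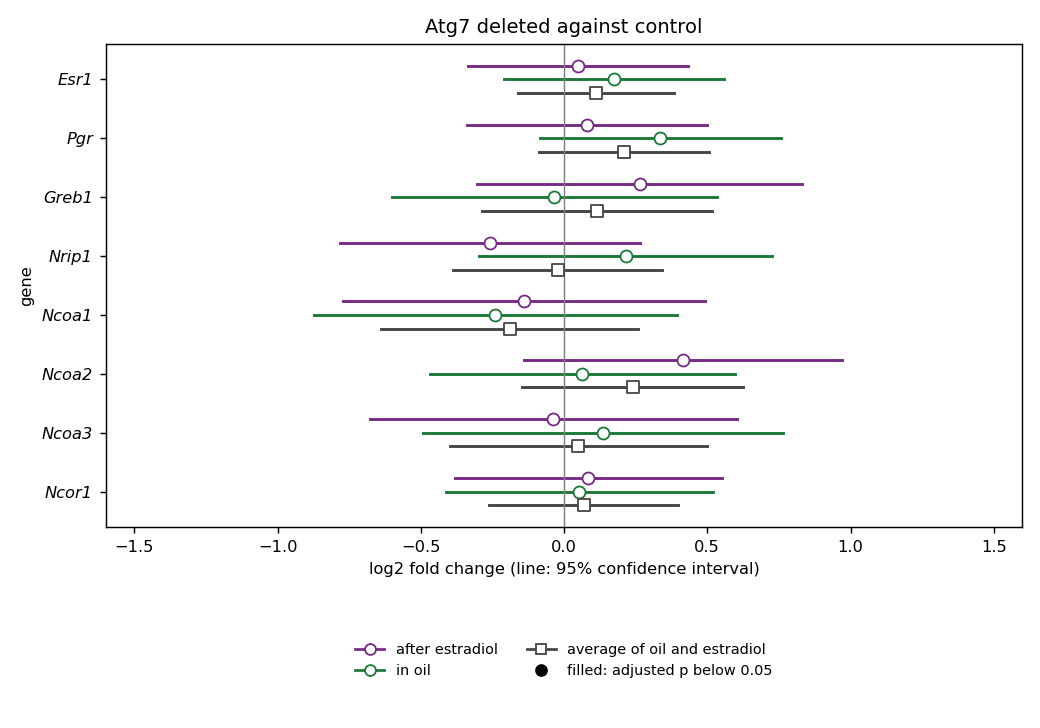
Log2 fold change of deleted over control (x axis) for each of the 8 genes (y axis), with E2 in purple, oil in green, their average as squares and 95% intervals as lines. No symbol is filled, since no adjusted p was below 0.05, and every interval crosses 0, between -0.87 and 0.97 at the extremes.

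Levels of the 8 genes were also compared across the 8 libraries as Pearson correlations of log2 CPM, as a description, since the libraries share their groups and the estradiol contrast. Esr1 and Pgr had r = 0.845, while Pgr had r = -0.809 with Ncor1 and -0.725 with Ncoa2. Ncoa2 had r = 0.749 with Ncor1 and 0.713 with Nrip1. Among 8700 genes with a mean of at least 10 CPM, the gene most like Pgr was Cbx6, a Polycomb protein gene, with r = 0.989. Next came Carm1 with r = 0.988, an arginine methyltransferase that p160 coactivators bring to receptors. Carm1 had an E2 effect of 0.68 ± 0.25 in deleted stroma (adjusted p = 0.073) and 0.96 ± 0.25 in control stroma (adjusted p = 0.0202), both log2 fold changes. The genes most like the others were Khsrp for Esr1 (r = 0.953), Phf10 for Greb1 (0.920), Odf2 for Nrip1 (0.982), Fbxl5 for Ncoa1 (0.974), Sfmbt1 for Ncoa2 (0.980), Thumpd1 for Ncoa3 (0.989) and Prpf4b for Ncor1 (0.987).

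Other genes of the pathway were counted from lists of known receptors, cofactors, chaperones, partner factors and targets, some genes being in more than 1 list. No gene of any list was called for the deletion or the interaction. The counts after E2 stand beside 13.1% of all genes called higher and 11.2% lower in deleted stroma, and 15.8% higher and 14.0% lower in control stroma. Of 8 other steroid receptor genes tested, 1 was called higher and 1 lower after E2 in deleted stroma, and 2 higher in control stroma. Esrra, an orphan receptor related to Esr1, rose by 1.01 ± 0.26 in deleted stroma (adjusted p = 0.0214) and 0.78 ± 0.26 in control stroma (adjusted p = 0.0459) on the log2 scale. Gper1, a membrane receptor gene, had log2 fold changes of -2.01 ± 0.55 in deleted stroma (adjusted p = 0.0295) and -1.31 ± 0.53 in control stroma (adjusted p = 0.0919). Esr2, the gene of estrogen receptor beta, had 3 reads over all 8 libraries and was not tested.

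Of 27 other coactivator genes, 2 were called higher and 8 lower after E2 in deleted stroma, and 4 higher and 10 lower in control stroma, with a median log2 fold change of -0.29 in deleted and -0.45 in control stroma, against 0.02 and 0.01 over all genes. Prmt1, an arginine methyltransferase gene, rose by 1.19 ± 0.16 in deleted stroma (adjusted p = 0.00243) and 1.40 ± 0.17 in control stroma (adjusted p = 0.00103). Kmt2c, a histone methyltransferase gene, had log2 fold changes of -0.84 ± 0.16 in deleted stroma (adjusted p = 0.00676) and -0.90 ± 0.16 in control stroma (adjusted p = 0.00426). Ppargc1a, a coactivator gene of energy metabolism, had -2.42 ± 0.47 in deleted stroma (adjusted p = 0.00768) and -1.91 ± 0.46 in control stroma (adjusted p = 0.0148). Kat5, an acetyltransferase gene, had -0.80 ± 0.18 in deleted stroma (adjusted p = 0.0128) and -0.83 ± 0.18 in control stroma (adjusted p = 0.00921). Of 18 other corepressor genes, 3 were called higher and 4 lower in deleted stroma, and 4 higher and 4 lower in control stroma. Ctbp2 had log2 fold changes of -1.40 ± 0.19 in deleted stroma (adjusted p = 0.0022) and -1.16 ± 0.18 in control stroma (adjusted p = 0.00298), and Phb, a prohibitin gene, had 1.17 ± 0.25 and 1.58 ± 0.25 in deleted and control stroma (adjusted p = 0.0118 and 0.0031).

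Of 12 receptor chaperone genes, 1 was called higher and 1 lower after E2 in deleted stroma, and 4 higher and 2 lower in control stroma. Dnaja1, a gene of the Hsp40 family, had log2 fold changes of -0.91 ± 0.19 in deleted stroma (adjusted p = 0.0113) and -1.02 ± 0.19 in control stroma (adjusted p = 0.00605). Fkbp5, a cochaperone that restrains steroid receptors and a known progesterone target, rose by 1.23 ± 0.36 in deleted stroma (adjusted p = 0.0379) and 1.63 ± 0.37 in control stroma (adjusted p = 0.012). Fkbp4, the cochaperone needed for progesterone receptor function in the mouse uterus, had log2 fold changes of 0.21 ± 0.26 in deleted stroma (adjusted p = 0.588) and 0.33 ± 0.26 in control stroma (adjusted p = 0.361). Of 12 partner and pioneer factor genes, 2 were called higher and 3 lower in each genotype. Hoxa11, a homeobox gene that the uterus needs for implantation, rose by 1.17 ± 0.26 in deleted stroma (adjusted p = 0.0132) and 1.38 ± 0.26 in control stroma (adjusted p = 0.00583). Sp1, whose protein binds GC boxes, had log2 fold changes of -0.79 ± 0.18 in deleted stroma (adjusted p = 0.0144) and -0.73 ± 0.18 in control stroma (adjusted p = 0.0167).

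Of 15 progesterone receptor targets tested, 2 were called higher and 5 lower in deleted stroma, and 2 higher and 4 lower in control stroma. Those called lower included Ihh, the hedgehog ligand made by uterine epithelium, with log2 fold changes of -3.81 ± 0.70 in deleted stroma (adjusted p = 0.00639) and -4.13 ± 0.73 in control stroma (adjusted p = 0.00439). Errfi1, a gene whose product restrains the epidermal growth factor receptor, had -1.43 ± 0.28 in deleted stroma (adjusted p = 0.00866) and -1.78 ± 0.29 in control stroma (adjusted p = 0.00309). Of 24 estrogen receptor targets tested, 10 were called higher and 5 lower in deleted stroma, and 9 higher and 5 lower in control stroma. Lcn2, an iron-carrier binding protein gene, rose by 5.66 ± 0.35 in deleted stroma (adjusted p = 0.000162) and 4.998 ± 0.323 in control stroma (adjusted p = 0.000157). Igf1, the growth factor of uterine stroma, rose by 3.21 ± 0.26 in deleted stroma (adjusted p = 0.000501) and 3.15 ± 0.26 in control stroma (adjusted p = 0.00029). These are log2 fold changes of E2 over oil.

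**Figure D5:**
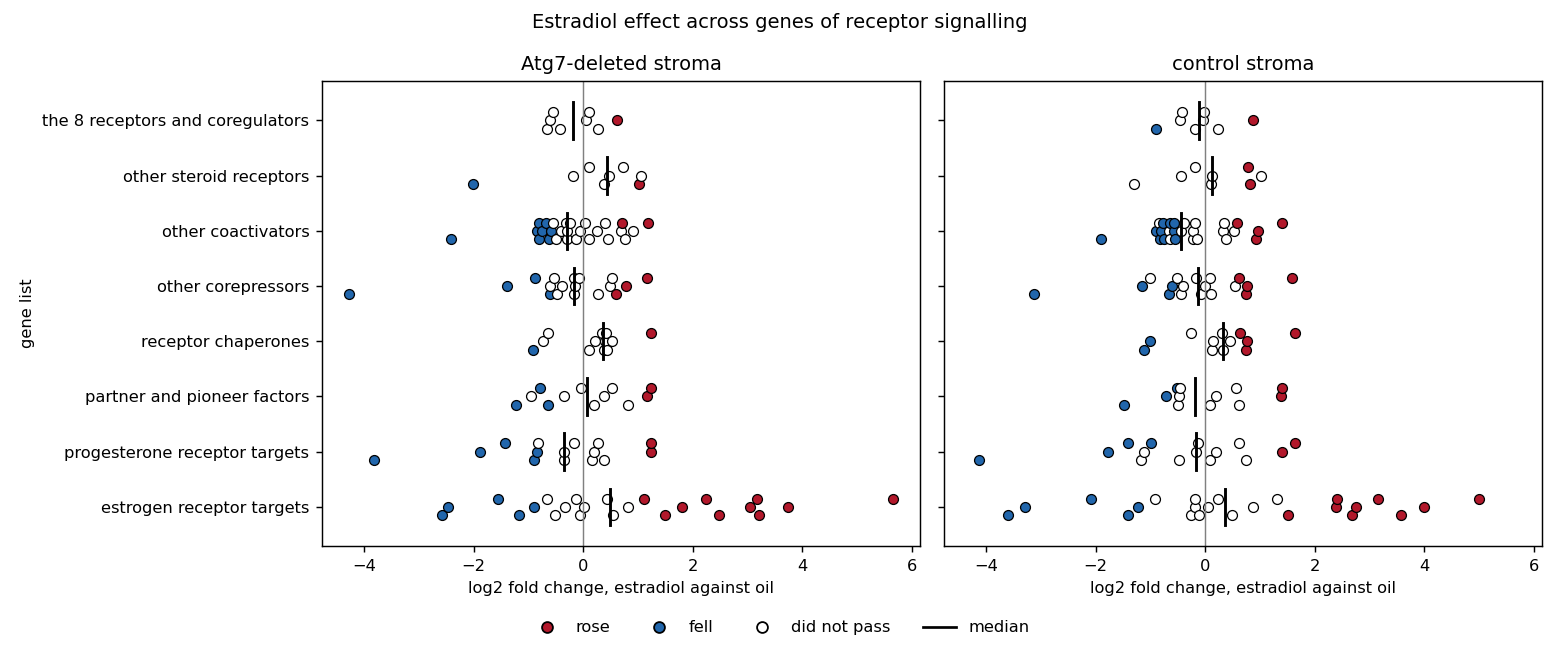
Log2 fold change of E2 over oil (x axis) for each tested gene of the pathway lists (y axis), with deleted stroma in the left panel and control stroma in the right; points are genes, red and blue ones have an adjusted p below 0.05, and bars are medians. The median of the coactivator genes is -0.29 in deleted and -0.45 in control stroma, and the largest rise is Lcn2, at 5.66 in deleted stroma.

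Markers of other cell types moved with the hormone as well, and their part in the values of the receptors and cofactors was not tested. In bulk RNA, fewer cells of a type and less RNA per cell cannot be told apart. The 14 epithelium markers summed to 1364 and 1855 CPM in deleted E2 libraries, against 11342 and 4806 CPM in deleted oil libraries. They summed to 1321 and 2913 CPM in control E2 libraries, against 18243 and 6131 CPM in control oil libraries. After E2, 6 of the 14 were called lower in deleted stroma and 9 in control stroma, and none higher. The 12 fibroblast markers summed to 8832 and 8201 CPM in deleted E2 libraries, against 2457 and 3088 CPM in deleted oil libraries, and 8619 and 6106 CPM in control E2 libraries, against 2055 and 2535 CPM in control oil libraries. After E2, 7 of the 12 were called higher and 1 lower in deleted stroma, and 7 higher and 2 lower in control stroma. The collagen genes Col1a1, Col1a2 and Col3a1 made up 5933 and 5434 CPM of the sum in deleted E2 libraries, against 169 and 332 CPM in deleted oil libraries, and 5849 and 3694 CPM in control E2 libraries, against 120.5 and 233 CPM in control oil libraries. The other 9 markers summed to 2899 and 2768 CPM in deleted E2 libraries, against 2288 and 2756 CPM in deleted oil libraries, and 2769 and 2412 CPM in control E2 libraries, against 1935 and 2302 CPM in control oil libraries. Fbln1, a matrix protein gene, was called lower in both genotypes, and Dcn, which encodes decorin, in control stroma. The 8 smooth muscle markers summed to 6212 and 7156 CPM in deleted E2 libraries, against 3050 and 4017 CPM in deleted oil libraries, and 6433 and 6588 CPM in control E2 libraries, against 1597 and 3515 CPM in control oil libraries. After E2, 4 of the 8 were called higher and 1 lower in deleted stroma, and 5 higher and none lower in control stroma. Fibroblast markers were thus present in every library, as were epithelium and smooth muscle markers, and no marker of any list was at 0 in all libraries. The sum of the 14 epithelium markers was above that of the 12 fibroblast markers in every oil library, and below it in every E2 library. In each genotype, oil library 1 had the higher epithelium sum of the 2 oil libraries. It also had the lower Esr1, Pgr, Nrip1, Ncoa1 and Ncoa3 and the higher Ncoa2 and Ncor1. Greb1 was higher in control oil library 1 and lower in deleted oil library 1 than in the other oil library of that genotype. The 8 macrophage markers summed to 264 and 228 CPM in deleted E2 libraries, against 156 and 173 CPM in deleted oil libraries. In control stroma they summed to 203 and 178 CPM with E2, against 131 and 104 CPM with oil. After E2, 1 of the 8 was called higher and 1 lower in deleted stroma, and 2 higher and none lower in control stroma. The 8 endothelium markers summed to between 1361 and 1990 CPM and the 5 pericyte markers to between 158 and 369 CPM over all libraries. The 6 lymphocyte and natural killer cell markers reached at most 2.52 CPM and the 4 mesothelium markers at most 2.21 CPM, too few reads to test.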

How the data were processed

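RNA of 8 libraries, 2 for each of 4 groups, was measured. The authors deposited raw counts of reads per gene symbol for each library, with no normalization, as the whole numbers in the files show. The RNA was extracted with Trizol and 500 ng went into each QuantSeq library, per the labels' protocols. Bowtie2, edgeR and the build mm10 are named, without versions or roles, per the submitters' processing notes; for the counter, the annotation and the handling of strand the sources used here give nothing. A count that assigned reads in another way could change genes with overlapping neighbours.

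For symbols listed more than once (35 symbols on 79 lines), the line with the most counts over all libraries was kept. The other lines of these symbols, 0.0973% of counts, were left out. Genes were kept by filterByExpr at a minimum count of 10 and a minimum total of 15; 13347 genes passed. Counts were scaled by the trimmed mean of M-values and tested with edgeR 4.0.16 (R 4.3.3) quasi-likelihood fits, with 1 mean per group and 4 residual degrees of freedom, two-sided, at an adjusted p below 0.05. The biological coefficient of variation was 21.8%. Intervals are at 95% and come from the same fit. Alternatives were DESeq2 1.42.0 and its size factors, library totals, no filter, fits of the compared groups alone, a replicate block and leaving out each library. Since nothing says that libraries came from separate animals, each p-value reflects only how far these samples spread, which may be technical.

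The 8 genes and the gene lists were chosen with earlier results of these data known. All 8 genes are named in every comparison; from each list, called genes with the smallest adjusted p are named, at most 4 per list in an estradiol comparison, along with Esr2, Fkbp4 and Fkbp5. A result for 1 further gene is not reported here. The averaged estradiol comparison, the crossed block and the genes singled out for values near a difference by genotype were chosen after the data had been seen. Coordinates of start regions come from RefSeq on GRCm38.p6, and exon overlaps from the GENCODE annotation of mm10.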

Additional observations from a re-analysis of the deposited data

How the results depend on the processing

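Each count of calls was recomputed under 8 alternatives where the comparison allowed them and without each of the 8 libraries. Each log2 fold change of the 8 genes was recomputed in the same way, except under the crossed replicate block, where only calls were counted. For E2 against oil in control stroma, a fit of the control libraries alone called 2342 genes (3978 in the fit of all libraries) and 1 of the 8 genes (2). In the E2 average, DESeq2 size factors in edgeR called 5 of the 8 genes (3), adding Nrip1 and Ncoa3. The average deletion effect, with 0 genes called, had 4 without a filter on low counts (Ak1, Clec3b and Saa3 higher, Sprr2b lower) and 3 in DESeq2 (Ak1, Clec3b and Saa3 higher), none of them among the 8 genes. Left-out libraries gave 740 to 4375 genes for E2 in deleted stroma, lowest without deleted E2 library 1, and 1511 to 4173 in control stroma, lowest without control E2 library 1. They gave 4596 to 6485 genes in the E2 average, and 0 to 1 for the average deletion effect (Sprr2b without control oil library 2). Of the 8 genes, 0 to 1 were called in deleted stroma, 1 to 2 in control stroma and 2 to 4 in the E2 average. An arm left with 1 library was assumed to vary like the other groups. Fits with fewer libraries gave lower counts in some cases and higher counts in others, and the cause of these shifts was not tested.

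Whether the replicate numbers pair the samples is not known. Deviations of same-numbered libraries correlated with r = 0.494 between deleted and control oil, and 0.23 between deleted and control E2. Between E2 and oil, r was -0.231 within control stroma and -0.00907 within deleted stroma. It was -0.17 between deleted oil and control E2, and -0.0263 between deleted E2 and control oil. With the replicate number as a block, 3423 genes were called for E2 in deleted stroma and 4094 in control stroma, and the same number of the 8 genes (1 and 2). In the E2 average the block called 4 of the 8, Ncoa3 among them (adjusted p = 0.0339). With the E2 numbers crossed, an alternative chosen after seeing the data, 4324 and 4946 genes were called in deleted and control stroma, and 2, 3 and 5 of the 8 genes in deleted stroma, control stroma and the E2 average.

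None of the log2 fold changes that turned sign was a called one. On library totals alone, E2 in control stroma gave 0.059 for Greb1 and 0.012 for Ncoa1, the oil deletion effect was 0.045 for Greb1, the average deletion effect 0.014 for Nrip1, and the interaction -0.0060 for Ncor1. Ncoa1 in control stroma was 0.0031 with the replicate block, and in the E2 average -0.014 with DESeq2 and -0.014 with its size factors. Without 1 library, 24 of 56 values turned sign in at least 1 case. The ranges for E2 in deleted stroma were -0.20 to 0.37 (Ncoa1). In control stroma they were -0.42 to 0.44 (Greb1), -0.37 to 0.33 (Ncoa1) and -0.41 to 0.0063 (Nrip1). In the E2 average they were -0.072 to 0.35 (Greb1) and -0.15 to 0.20 (Ncoa1). The deletion effect in oil ranged from -0.42 to 0.44 (Greb1), -0.56 to 0.14 (Ncoa1), -0.034 to 0.15 (Ncoa2), -0.17 to 0.50 (Ncoa3) and -0.16 to 0.24 (Ncor1). In E2 it ranged from -0.045 to 0.15 (Esr1), -0.22 to 0.12 (Ncoa3), -0.048 to 0.23 (Ncor1) and -0.056 to 0.20 (Pgr). Its average ranged from -0.072 to 0.36 (Greb1), -0.35 to 0.0022 (Ncoa1), -0.10 to 0.24 (Ncoa3), -0.040 to 0.16 (Ncor1) and -0.12 to 0.090 (Nrip1). The interaction ranged from -0.17 to 0.69 (Greb1), -0.27 to 0.42 (Ncoa1), -0.53 to 0.14 (Ncoa3) and -0.16 to 0.25 (Ncor1).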
